A study of Mus musculus with 25 samples.

Results

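The genes described here are 34 interferon stimulated genes, chosen by their symbols from a table of 24358 genes measured in mouse sperm RNA. The list is a functional group, but it was chosen with earlier results of these data known and is not independent of them. All 34 genes were found, all had an estimate in every condition, and 31 reached 10 counts in every condition. Prenatal exposure to di-(2-ethylhexyl) phthalate (DEHP), a plasticizer, was compared with vehicle in the inbred strains C57BL/6J and FVB/N.

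Type I interferons are secreted proteins that bind a receptor on the cell surface, and its kinases Jak1 and Tyk2 then switch on signalling to the nucleus. A complex that holds Stat2 and Irf9 binds a short promoter motif, the interferon stimulated response element (ISRE), and turns on genes that sense viral RNA, block viral replication or mark proteins with Isg15. Interferon gamma acts on a different motif, the gamma activated site (GAS), and is a strong inducer of the guanylate binding proteins. Most cell types can express these genes, and leukocytes express many of them at rest.

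Conditions were named by strain, exposure and generation. C57.CTL.F1 and FVB.CTL.F1 were sons of C57BL/6J and FVB/N females given corn oil, the vehicle. C57.D300.F1 and FVB.D300.F1 were sons of females given 300 mg/kg/day DEHP by mouth on embryonic days 9 to 19. C57.D300.F2 were sons of exposed F1 males mated with unexposed females, and no F2 condition from the vehicle lineage was used here. Each condition had 5 libraries from males aged 14 weeks, whose sperm had swum out of the cauda epididymis, the storage end of the epididymal duct. Both C57BL/6J F1 conditions came from 10 reused libraries of earlier work, the other 15 libraries were new, and no condition was in both sets. The difference between the sets therefore cannot be told apart from strain or generation in any comparison that crosses them.

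The RNA was read by all-RNA-seq, in which RNA ends are repaired so that every type of RNA can be sequenced. Each gene has 1 estimated fragment count per condition in the table, made from its 5 libraries together. No value could therefore be set against the spread of replicates, and p-values are not given. For each gene, the 3 counts in C57BL/6J follow the order vehicle F1, DEHP F1 and DEHP F2, and the pair in FVB/N the order vehicle and DEHP. An error written after ± is 1 standard deviation (SD) of a count under the authors' Cuffdiff model, not a measured spread of the libraries. Counts summed to between 6921688 and 8602900 per condition, and a limit of detection of 3 counts was used, for counting error only. Germ cell and sperm markers summed to 82163 and 97727 counts in the reused libraries, to 33303 in C57.D300.F2, and to 8324 and 9971 in FVB/N. Liver markers summed to 193813 and 225721 counts in the reused libraries and to at most 5143 in the new ones. Between the F1 conditions of C57BL/6J, the seminal vesicle marker sum went from 214761 counts with vehicle to 67.6 after DEHP. Of these markers 5 of 5 were lower by 1 log2 unit (beside 1.15% of all genes). Between the F1 conditions of FVB/N, epididymal markers went from 949.99 counts with vehicle to 42639 after DEHP. Here 13 of 13 were higher by 1 log2 unit (beside 2.16%). The part of either in the DEHP comparison of its strain was not tested. Sperm markers were thus detected in all conditions, beside RNA of other tissues.

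Promoter sequences are shown first because the ISRE is the feature by which interferon is known to reach these genes. RefSeq start sites on GRCm38.p6, with 250 bases before and 50 after each, were at hand for 26 of the 34 genes in 30 windows. Entries were missing for Zbp1, Usp18, Oas2, Mx1, Mx2, Gbp6, Rtp4 and Parp14. The ISRE letters, GAAA followed by any 2 bases and again GAAA, searched on both strands, were present in the windows of 16 of the 26 genes (61.5%) and of 3.91% of 17196 genes with a window. The GAS letters TTCNNNGAA were found for 6 of the 26 genes (23.1%) and for 9.28% of all genes. The sequences below are from 7 genes whose values are described further on, and capitals mark the ISRE letters, or their reverse complement, overlapping matches being run together.
Ifit1: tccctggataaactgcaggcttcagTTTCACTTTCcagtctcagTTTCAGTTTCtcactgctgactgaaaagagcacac
Ifit3: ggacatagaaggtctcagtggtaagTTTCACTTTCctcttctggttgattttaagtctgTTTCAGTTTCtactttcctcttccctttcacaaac
Rsad2: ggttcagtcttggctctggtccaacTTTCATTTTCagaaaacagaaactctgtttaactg
Isg15: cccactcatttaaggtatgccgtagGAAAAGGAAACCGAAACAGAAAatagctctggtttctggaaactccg
Ddx60: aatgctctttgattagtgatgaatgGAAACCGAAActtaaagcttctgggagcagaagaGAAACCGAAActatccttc
Gbp7: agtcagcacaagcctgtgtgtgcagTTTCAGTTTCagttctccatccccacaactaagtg
Bst2: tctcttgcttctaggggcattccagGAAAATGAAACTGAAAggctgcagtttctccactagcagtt

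Each sequence reads 5′ to 3′ along the gene's strand and lies upstream of the start site. The stretches are chr19:34640760-34640838 (plus strand) for Ifit1, chr19:34583348-34583441 (plus) for Ifit3 and chr12:26456538-26456597 (minus) for Rsad2. They are chr4:156200850-156200921 (minus) for Isg15, chr8:61928009-61928086 (plus) for Ddx60, chr3:142530258-142530317 (plus) for Gbp7 and chr8:71537562-71537627 (minus) for Bst2. The first match begins 104 bases before the start site in Ifit1, 156 in Ifit3, 120 in Rsad2, 78 in Isg15, 53 in both Ddx60 and Gbp7, and 130 in Bst2. A match describes these letters only and is not a measured binding site.

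In C57BL/6J, 27 of the 34 genes had a higher count after DEHP than with vehicle, by any amount (79.4%, beside 48.3% of all genes). The median log2 ratio, computed after adding 1 to each count, was 0.41 for the 34 genes and -0.01 over 16825 genes. The differences were small, and Gbp2 alone passed 1 log2 unit upward (1 of 34, beside 1.09% of all genes) and none passed it downward (beside 1.15%). In FVB/N, 20 of 34 were higher by any amount after DEHP (58.8%, beside 50.6% of all genes), the median log2 ratio was 0.08, and none passed 1 log2 unit in either direction (beside 2.16% of all genes upward and 0.619% downward). At 2 log2 units none of the 34 passed in either strain, beside 0.0357% of all genes higher and 0.256% lower in C57BL/6J, and 0.662% higher and 0.0182% lower in FVB/N. Lower by any amount after DEHP were 14 of the 34 in FVB/N, beside 49.4% of all genes. Under the 3 other scalings, 27 to 30 genes were higher in C57BL/6J and 17 to 21 in FVB/N. The share of all genes was not computed under these scalings. With equal totals the median of all genes in C57BL/6J was 0.10, so the 48.3% does not apply there. The difference between the strains in this response was not tested.

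**Figure D1:**
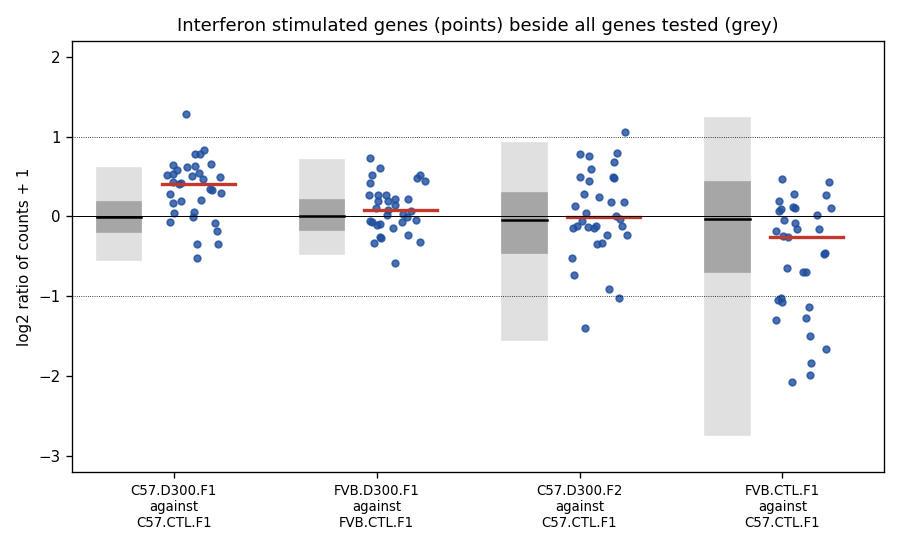
Log2 ratio of counts with 1 added (vertical axis) of the 34 interferon stimulated genes in 4 comparisons of conditions. Each point is a gene and the red line their median, the dark and light grey boxes hold the middle 50% and 90% of all genes tested with a black line at their median, and dotted lines mark 1 log2 unit; the red line stands at 0.41 in the comparison of C57.D300.F1 with C57.CTL.F1 and at -0.25 in that of FVB.CTL.F1 with C57.CTL.F1.

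Without DEHP, FVB/N had lower counts than C57BL/6J for 11 of the 34 genes by at least 1 log2 unit, beside 18.8% of all genes, and higher counts for none, beside 7.5%. These were Zbp1, Ifit1, Ifit3, Oasl1, Rsad2, Cmpk2, Ifitm3, Gbp3, Gbp6, Ifi44 and Rtp4. By any amount, 23 of the 34 were lower in FVB/N (beside 51.8% of all genes), and the median log2 ratio was -0.25, beside -0.03 over all genes. With Oasl2 and Parp14 the same 11 made up the 13 genes lower by more than the model SD of the difference, beside 25.3% of all genes, and none was higher by that margin, beside 15.9%. By 2 log2 units Gbp6 alone was lower, beside 8.88% of all genes, and none was higher, beside 1.44%. When equal totals or the upper quartile set the scale, the median of all genes moved up by 0.18 in both cases, 7 genes passed the threshold, and Ifit1, Oasl1, Gbp3 and Rtp4 no longer did. Over all 5 conditions, both FVB/N counts lay below all 3 C57BL/6J counts for 19 of the 34 genes (55.9%, beside 32.4% of all genes) and above them for 4 (beside 29.4%). Under the 3 other scalings these counts were 16 to 19 and 3 to 4. Within the new libraries, both FVB/N counts lay below C57.D300.F2 for 26 genes (beside 43.3% of all genes) and above it for 5 (beside 42.2%). There C57.D300.F2 is F2 and both FVB/N conditions are F1, so strain cannot be told apart from generation. As the RNA is from bulk samples, fewer cells of a type and less RNA per cell cannot be told apart. Reads of both strains were mapped to the reference genome mm10, that of C57BL/6J. Some FVB/N reads may thus be lost in genes whose sequence differs between the strains, and the size of any such loss was not tested.

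In the generation comparison, C57.D300.F2 was set beside C57.CTL.F1, the only C57BL/6J vehicle condition. Oas2 was higher by at least 1 log2 unit (1 of 34, beside 4.1% of all genes), and Bst2 and Ifitm3 were lower (2 of 34, beside 10.2%). These counts moved with the settings, to 4 higher and 1 lower with equal totals, 3 and 1 with the upper quartile, 0 and 1 when 10 in place of 1 was added to each count, and 1 lower under median-of-ratios scaling. None passed 2 log2 units, beside 0.584% of all genes higher and 3.61% lower. Of the 34 genes, 17 were higher by any amount (beside 46.8% of all genes), and the median log2 ratio was -0.01. With equal totals the median of all genes moved up by 0.29, the median of the 34 became 0.28 and 27 genes were above 0, so the direction of many of the genes in this comparison rests on the scaling. By more than the model SD of the difference, Ddx60, Oas2, Oasl2, Gbp2 and Trim30a were higher (5 of 34, beside 8.72% of all genes) and Irf9, Mx2, Bst2, Ifitm3 and Gbp6 were lower (5 of 34, beside 18.2%).

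The condition with the highest count was C57.D300.F1 for 20 of the 34 genes, against 20.7% of all genes, and that condition was the lowest for none of the 34, against 19.4% of all genes. The lowest count was in FVB.CTL.F1 for 15 genes, against 20.1% of all genes, and in FVB.D300.F1 for 9, against 25.3%. Summed over the 34 genes, the counts were 5774, 6656 and 5339.7 in C57BL/6J and 4634 and 4641 in FVB/N. By gene, the highest of the 5 counts was between 1.18 times the lowest, in Stat2, and 6.39 times, in Oasl1.

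**Figure D2:**
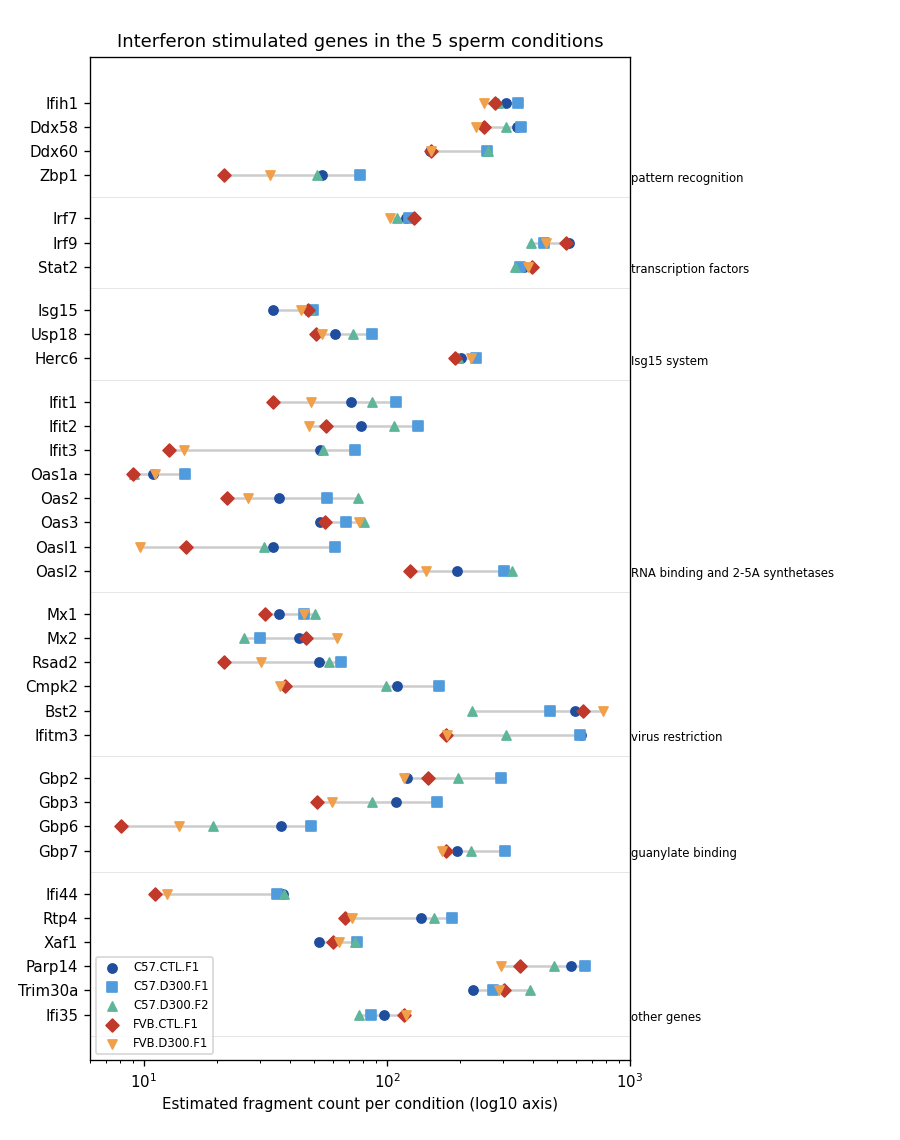
Estimated fragment counts (horizontal log10 axis) of the 34 genes in the 5 conditions, 1 row per gene, grouped by role. Symbols are conditions and the grey line spans the 5 counts of a gene; the light blue squares of C57.D300.F1 are the rightmost symbol for 20 genes, and the red and orange symbols of FVB/N lie left of all 3 C57BL/6J symbols for 19.

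The marker lists were set beside these genes, leukocytes and endothelium first. All 19 leukocyte markers were found, none was under 3 counts in any condition, and they summed to 9386, 12983 and 6988 counts in C57BL/6J and to 3497 and 3623 in FVB/N. Like the summed interferon stimulated genes on the same scale, they were highest in C57.D300.F1 and lower in FVB/N than in any C57BL/6J condition. Their median log2 ratio was 0.36 after DEHP in C57BL/6J, with 3 of 19 higher (beside 1.09% of all genes) and 1 lower by 1 log2 unit (beside 1.15%). It was -1.18 between FVB/N and C57BL/6J with vehicle, with 11 of 19 lower (beside 18.8%) and none higher (beside 7.5%). It was -0.10 in C57.D300.F2 against C57BL/6J vehicle and 0.22 after DEHP in FVB/N. Ptprc, the common leukocyte antigen, had 306, 490.2 and 249 counts in C57BL/6J and 116 and 132 in FVB/N. Cd74, the chaperone of class II molecules on antigen presenting cells, had 2508, 4949 and 2997 counts in C57BL/6J and 1355 and 1190.2 in FVB/N. The 5 endothelium markers, none under 3 counts, summed to 1521, 1924 and 1195 counts in C57BL/6J and to 817 and 738 in FVB/N. Their median log2 ratio was 0.32 after DEHP in C57BL/6J. It was -0.14 after DEHP in FVB/N and -0.45 in C57.D300.F2 against C57BL/6J vehicle, where the 34 genes had 0.08 and -0.01. Between the vehicle conditions it was -1.002, with 3 of 5 lower in FVB/N by 1 log2 unit (beside 18.8%). Lower values in FVB/N with vehicle were not particular to these 2 lists. Germ cell and sperm markers and liver markers were each lower by 1 log2 unit for 12 of 12 (beside 18.8%), with medians of -3.27 and -7.33. Smooth muscle and red cell markers had medians of -0.78 and -0.03 after DEHP in C57BL/6J, and of -0.67 and 2.33 in FVB/N. Between the vehicle conditions they were -0.59 and -0.34. There 1 of 5 and 1 of 3 were lower in FVB/N by 1 log2 unit (beside 18.8%). After DEHP in C57BL/6J, 1 of 5 smooth muscle markers was lower by that margin (beside 1.15%). In FVB/N, 3 of 3 red cell markers were higher (beside 2.16%). The part of any of these marker lists in the values of the interferon stimulated genes was not tested.

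**Figure D3:**
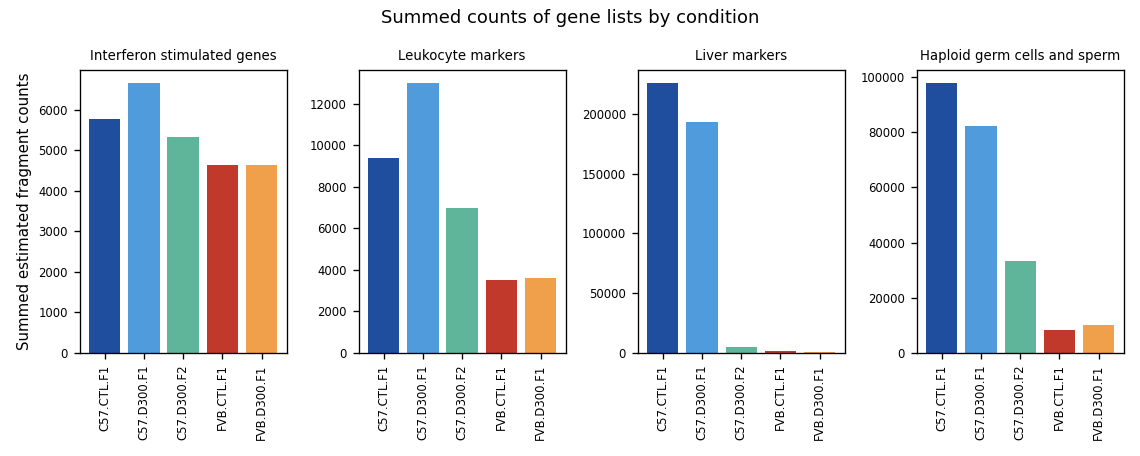
Summed estimated fragment counts (vertical axes, each starting at 0 with its own scale) of the 34 interferon stimulated genes, 19 leukocyte markers, 12 liver markers and 12 markers of haploid germ cells and sperm in the 5 conditions. The first pair of panels were highest in C57.D300.F1, whereas liver markers, and germ cell and sperm markers, were highest in C57.CTL.F1.

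The sensors of foreign nucleic acid were Ifih1, Ddx58 and Ddx60, helicases that bind or help detect viral RNA, and Zbp1, which binds nucleic acid in its Z form. All 4 were higher after DEHP in C57BL/6J F1 by any amount. Ddx60 had 151 ± 37.9, 259 ± 61.4 and 261 ± 62.9 counts in C57BL/6J, and 152 ± 37.7 and 152 ± 38.5 in FVB/N. Both DEHP conditions of C57BL/6J were therefore high for Ddx60, and C57BL/6J vehicle and FVB/N were alike within 2 counts. The F1 difference of 108 counts in C57BL/6J was larger than its model SD of 72.2, and so was the difference in C57.D300.F2. Zbp1 had 53.9, 77.5 and 51.7 counts in C57BL/6J, and 21.4 and 33.0 in FVB/N. Its FVB/N counts were below all C57BL/6J counts, with a log2 ratio of -1.30 between the vehicle conditions and a model SD of 18.6 counts for their difference of 32.5. Ifih1 had 309, 347 and 285 counts in C57BL/6J, and 277 and 250.4 in FVB/N. Ddx58 had 342, 356 and 310.3 counts in C57BL/6J and 249.9 and 233 in FVB/N. For Ifih1 and Ddx58 the strains did not overlap, but the differences between the vehicle conditions were smaller than their model SD.

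Irf9 and Stat2, the partners of the ISRE-binding complex, and Irf7, which amplifies interferon production, were among the steadiest of the 34 genes. Stat2 had 368 ± 86.3, 352 ± 81.4 and 335 ± 77.5 counts in C57BL/6J, and 396 ± 94.8 and 382 ± 88.7 in FVB/N. The FVB/N counts of Stat2 were above all those of C57BL/6J, by a smaller margin than the model SD. Irf9 ranged from 391.5 to 562 counts and Irf7 from 103 to 129. The log2 ratios after DEHP in C57BL/6J F1 were -0.34 for Irf9, 0.04 for Irf7 and -0.06 for Stat2. The gene model of Irf9 overlaps that of Rnf31 on the same strand, and that of Irf7 overlaps Phrf1 on the opposite strand, so some reads of these genes may be shared.

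Isg15, a small ubiquitin-like protein, Herc6, the ligase that attaches it in mice, and Usp18, the protease that removes it, were all higher after DEHP in C57BL/6J F1 by any amount, with log2 ratios of 0.53, 0.20 and 0.49. Isg15 had 34.02 ± 11.7, 49.6 ± 15.2 and 48.3 ± 15.9 counts in C57BL/6J, and 47.3 ± 14.8 and 44.1 ± 14.1 in FVB/N. The vehicle condition of C57BL/6J thus stood below the other 4, and its differences from C57.D300.F1, C57.D300.F2 and FVB.CTL.F1 were each smaller than their model SD. Usp18 had 61.3, 86.4 and 72.8 counts in C57BL/6J and 51.1 and 54.3 in FVB/N. Its FVB/N counts were below all those of C57BL/6J. Herc6 varied between 190.3 and 232 counts and had no separation by strain.

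The Ifit proteins bind viral RNA that lacks the marks of host RNA, and the oligoadenylate synthetases make a messenger that activates an RNA-degrading enzyme. Oasl1 and Oasl2 are relatives of the synthetases. All 8 genes of this group were higher after DEHP in C57BL/6J F1. Their median log2 ratio was 0.63, between 0.34 for Oas3 and 0.84 for Oasl1. In FVB/N the median of the group after DEHP was 0.24, and Oasl1 was at -0.58.

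Ifit1, Ifit2 and Ifit3 lie close together on chromosome 19, at chr19:34640871-34650009, chr19:34550694-34576419 and chr19:34583531-34588731 in GENCODE M21. Ifit1 had 70.8 ± 20.6, 109 ± 28.4 and 86.5 ± 24.7 counts in C57BL/6J, and 33.8 ± 11.4 and 48.9 ± 15.7 in FVB/N. Ifit2 had 78.1, 134 and 107 counts in C57BL/6J and 56.4 and 47.8 in FVB/N. Ifit3 had 52.9 ± 16.1, 73.9 ± 21.2 and 54.7 ± 16.8 counts in C57BL/6J, and 12.7 ± 5.74 and 14.6 ± 6.32 in FVB/N. All 3 had their highest count in C57.D300.F1 and both FVB/N counts below the C57BL/6J counts, and Ifit3 was the most separated, with its lowest C57BL/6J count 3.61 times its highest FVB/N count. The log2 ratios between the vehicle conditions were -1.04 for Ifit1, -0.46 for Ifit2 and -1.98 for Ifit3. A near copy, Ifit3b, was counted apart, and the division of reads between such copies is uncertain.

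Oasl1 had 33.9 ± 11.6, 61.4 ± 19.0 and 31.1 ± 10.7 counts in C57BL/6J, and 14.9 ± 6.44 and 9.6 ± 4.69 in FVB/N. Oasl2, its neighbour on chromosome 5, had 194, 302 and 328 counts in C57BL/6J and 124 and 144 in FVB/N. Oas2 had 36.0 ± 11.9, 56.8 ± 17.1 and 76.1 ± 21.4 counts in C57BL/6J, and 21.9 ± 8.59 and 26.7 ± 10.1 in FVB/N. FVB/N was low for these 3 genes, but the C57BL/6J conditions differed in order, with Oasl1 highest in C57.D300.F1 and both Oas2 and Oasl2 highest in C57.D300.F2. The log2 ratio of C57.D300.F2 to C57.CTL.F1 was 1.06 for Oas2 and 0.75 for Oasl2, and both differences were larger than their model SD. Oas3 ranged from 53.2 to 80.7 counts and Oas1a from 9.00 to 14.8, with overlap between the strains.

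Among proteins that restrict viruses, Mx1 and Mx2 are dynamin-like GTPases, Rsad2 makes an RNA chain terminator, Cmpk2 supplies its nucleotide substrate, Bst2 tethers virus particles to the cell and Ifitm3 blocks viral fusion. Rsad2 and Cmpk2 are neighbours on chromosome 12, at chr12:26442746-26456452 and chr12:26469204-26479837, on opposite strands. Rsad2 had 52.7 ± 16.1, 64.8 ± 18.9 and 57.8 ± 18.9 counts in C57BL/6J, and 21.3 ± 8.19 and 30.3 ± 10.6 in FVB/N. Cmpk2 had 109.6 ± 29.7, 164 ± 40.4 and 99.3 ± 26.4 counts in C57BL/6J, and 38.2 ± 12.5 and 36.3 ± 12.3 in FVB/N. Both genes were lower in FVB/N than in every C57BL/6J condition, with log2 ratios of -1.27 and -1.50 between the vehicle conditions.

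Bst2 and Ifitm3 had the highest levels of the 34 genes per kb of merged exons, 655 and 923 counts per kb in C57.CTL.F1. Ifitm3 had 626 ± 157, 622 ± 152 and 309 ± 72.8 counts in C57BL/6J, and 175 ± 44.1 and 177 ± 43.2 in FVB/N. Its counts were nearly the same in both conditions of each F1 pair, with log2 ratios after DEHP of -0.01 in C57BL/6J and 0.02 in FVB/N. Bst2 had 592 ± 159, 467 ± 117 and 224 ± 53.5 counts in C57BL/6J, and 641 ± 156 and 775 ± 199.8 in FVB/N. Bst2 was thus highest in FVB/N and lowest in C57.D300.F2, where its log2 ratio to C57.CTL.F1 was -1.40. For Ifitm3 this ratio was -1.02, and it did not pass 1 log2 unit under the 3 other scalings, whereas that of Bst2 did. Mx2 had 43.4, 30.05 and 25.7 counts in C57BL/6J and 46.4 and 62.3 in FVB/N, with FVB/N above and the vehicle conditions within 3 counts. Mx1 ranged from 31.4 to 50.4 counts without separation by strain.

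**Figure D4:**
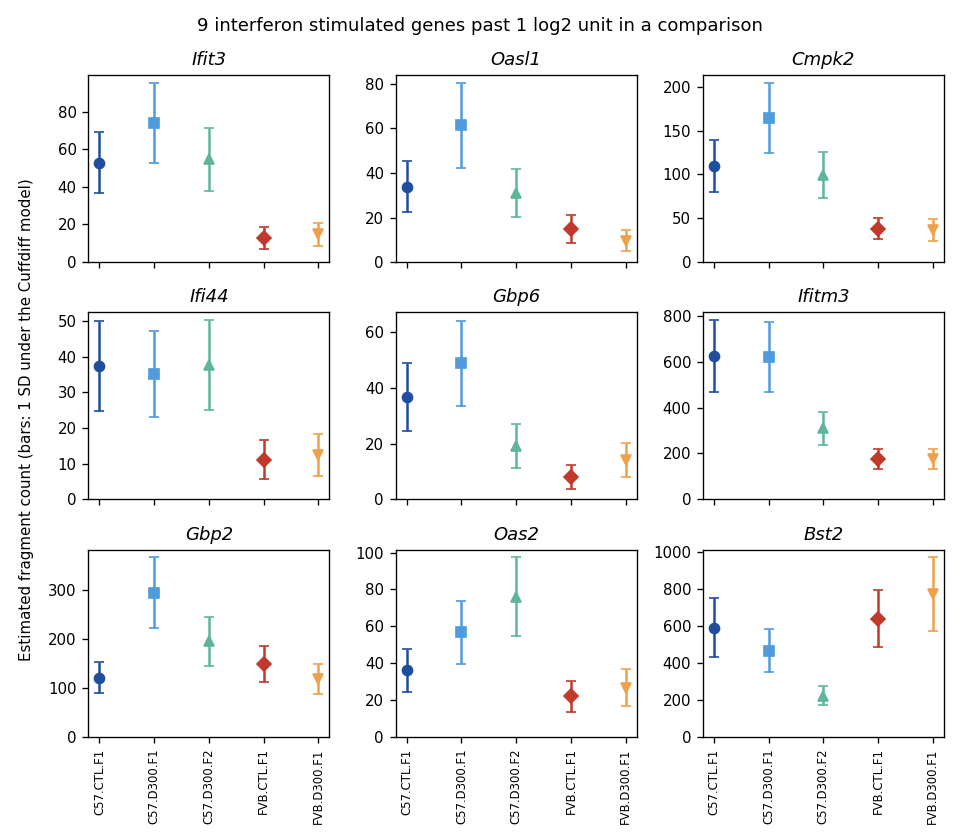
Estimated fragment counts (vertical axes, each starting at 0) of 9 genes in the 5 conditions, with bars of 1 SD under the Cuffdiff model, which is not a spread between libraries. Ifit3, Oasl1, Cmpk2, Ifi44, Gbp6 and Ifitm3 were low in both FVB/N conditions, Gbp2 was highest in C57.D300.F1, Oas2 was highest in C57.D300.F2, and Bst2 was lowest in C57.D300.F2.

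The guanylate binding proteins are GTPases that attack the vacuoles of intracellular microbes. All 4 were higher after DEHP in C57BL/6J F1, and their log2 ratios had a median of 0.60. Gbp2 had 121 ± 31.1, 295 ± 73.5 and 195 ± 50.4 counts in C57BL/6J, and 148 ± 36.8 and 117 ± 30.8 in FVB/N. Gbp2 was 2.43 times as high after DEHP as with vehicle in C57BL/6J F1 (log2 ratio 1.28, taken with 1 added to each count), a difference of 174 counts with a model SD of 79.8, while in FVB/N the log2 ratio after DEHP was -0.33. Gbp2, Gbp3 and Gbp7 lie in a row on chromosome 3, at chr3:142620602-142638008, chr3:142560026-142573209 and chr3:142530342-142550149.

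Gbp3 had 109 ± 28.9, 160.0 ± 40.7 and 86.4 ± 24.0 counts in C57BL/6J, and 51.5 ± 15.9 and 59.2 ± 18.2 in FVB/N. Gbp7 had 195 ± 46.3, 307 ± 71.6 and 221 ± 53.1 counts in C57BL/6J, and 174 ± 42.6 and 169 ± 40.4 in FVB/N. Gbp6 had 36.8 ± 12.4, 48.9 ± 15.3 and 19.2 ± 7.87 counts in C57BL/6J, and 8.01 ± 4.36 and 14.0 ± 6.08 in FVB/N. All 3 had their highest count in C57.D300.F1 and lower counts in FVB/N than in any C57BL/6J condition, and Gbp2 shared the former only. The log2 ratios between the vehicle conditions were -1.07 for Gbp3, -0.16 for Gbp7 and -2.07 for Gbp6, the last being the lowest of the 34. Gbp6 has close copies in its cluster on chromosome 5, such as Gbp10, and how the authors' counting split their reads is uncertain.

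Across all roles, 9 genes were higher after DEHP in C57BL/6J F1 by more than the model SD of the difference, as were 3.45% of all genes. They were Ddx60, Ifit1, Ifit2, Oasl1, Oasl2, Cmpk2, Gbp2, Gbp3 and Gbp7, and none of the 34 was lower by that margin (beside 3.13%). Every sensor, Isg15 system, Ifit, synthetase and guanylate binding gene was also above 0 in this comparison under the 3 other scalings. That could not have come out otherwise. Only median-of-ratios moved the median of all genes downward, by 0.01, and the lowest ratio in these groups was 0.06, for Ddx58. These groups were picked because all their genes were higher. In the groups left out, 1 of 3 transcription factors, 3 of 6 virus restriction genes and 4 of 6 remaining genes were higher by any amount. The share of all genes was 48.3%. In FVB/N no gene passed this margin after DEHP, in either direction (beside 3.76% upward and 1.89% downward). Its log2 ratios lay between -0.58 for Oasl1 and 0.74 for Gbp6, and both of these genes had under 15 counts in each FVB/N condition.

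Of the remaining genes, Ifi44 is an antiviral protein, Rtp4 is a receptor transporting protein, Parp14 adds ADP-ribose to proteins, Trim30a dampens inflammatory signalling, Xaf1 promotes cell death and Ifi35 pairs with Nmi. Ifi44 had 37.3 ± 12.6, 35.2 ± 11.99 and 37.6 ± 12.6 counts in C57BL/6J, and 11.1 ± 5.39 and 12.4 ± 5.80 in FVB/N. Its counts were even within each strain and 2.83 times apart between the nearest values of the strains. Rtp4 had 137, 185 and 156 counts in C57BL/6J and 67.1 and 71.99 in FVB/N. Parp14 had 571, 651 and 485 counts in C57BL/6J and 352 and 294 in FVB/N. Both Rtp4 and Parp14 were lower in FVB/N without overlap, by log2 ratios of -1.02 and -0.70 between the vehicle conditions. Ifi35 went the other way, with 97.5, 85.8 and 76.6 counts in C57BL/6J and 117 and 120.2 in FVB/N. Trim30a, with 225 to 387 counts, and Xaf1, with 52.4 to 75.1, had overlapping strains. The gene model of Rtp4 overlaps Masp1 on the opposite strand.

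The 19 genes low in both FVB/N conditions were Ifih1, Ddx58, Zbp1, Usp18, Ifit1, Ifit2, Ifit3, Oas2, Oasl1, Oasl2, Rsad2, Cmpk2, Ifitm3, Gbp3, Gbp6, Gbp7, Ifi44, Rtp4 and Parp14, and the 4 high in both were Stat2, Mx2, Bst2 and Ifi35. By a gap of at least 1 log2 unit between the nearest values, Ifit3, Oasl1, Cmpk2 and Ifi44 were lower in FVB/N, 4 of 34 beside 6.29% of all genes, and none was higher, beside 2.23%. The ISRE letters did not divide these genes, since they were present for 8 of the 13 low genes with a promoter window and for 8 of the other 13. Ifit3 and Rsad2, among the low genes, and Isg15, Ddx60 and Bst2, among the others, all carried them in the stretches printed above.

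Interferons themselves were scarcely present. Ifna1, Ifna2, Ifna4, Ifnb1, Ifne, Ifng, Ifnl2 and Ifnl3 had under 3 counts in every condition, so they were not detectable at this depth. Ifnk, an interferon of epithelium, had 13.8 ± 14.5, 21.0 ± 22.9 and 9.65 ± 7.87 counts in C57BL/6J, and 6.38 ± 7.62 and 4.71 ± 6.48 in FVB/N. Its model SD was larger than the count in every condition but C57.D300.F2, so its presence and its order between conditions are uncertain. The receptor chain genes were all above the limit of detection, from 1131 to 1672 counts for Ifnar1, 169 to 352 for Ifnar2, 409 to 627 for Ifngr1, 124 to 217 for Ifngr2, 47.4 to 100.7 for Ifnlr1 and 158 to 248 for Il10rb. Of Ifnk and these 6 genes, none passed 1 log2 unit in a comparison where it was tested. Ifnk, under 10 counts in FVB/N, was not tested after DEHP there. Between the vehicle conditions it was at -0.9997, just short of the threshold. Shares of all genes higher and lower were 1.09% and 1.15% after DEHP in C57BL/6J, and 2.16% and 0.619% in FVB/N. They were 4.1% and 10.2% in C57.D300.F2 and 7.5% and 18.8% in FVB.CTL.F1, each against C57BL/6J vehicle.

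Among 22 genes of interferon signalling, Socs3, an inhibitor of Jak kinases, was lower after DEHP (78.4 counts) than with vehicle (176) in C57BL/6J F1, by a log2 ratio of -1.16 (1 of 22, beside 1.15% of all genes), and none was higher by 1 log2 unit (beside 1.09%). Between the vehicle conditions, Irf5, Irf8 and Ikbke were lower in FVB/N (3 of 22, 13.6%, beside 18.8% of all genes) and none was higher (beside 7.5%). Irf5 and Irf8, factors known from myeloid and B cells, had log2 ratios of -1.66 and -1.48.

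A further list of interferon induced genes, drawn up beside the 34, held 56 genes of the table. In C57BL/6J, 39 of the 48 genes tested were higher after DEHP by any amount (beside 48.3% of all genes), with a median log2 ratio of 0.34. By 1 log2 unit, 3 were higher (6.25%, beside 1.09%) and 1 was lower (beside 1.15%), and Gbp4 was the largest with at least 50 counts, at 26.8 counts with vehicle and 66.7 with DEHP. In FVB/N, 17 of 41 were higher after DEHP by any amount (beside 50.6%) and none passed 1 log2 unit (beside 2.16% upward and 0.619% downward). In C57.D300.F2 against C57BL/6J vehicle none of 47 was higher by 1 log2 unit (beside 4.1%), and Gbp10, Gbp11, Iigp1 and Cxcl9 were lower (8.51%, beside 10.2%). Between the vehicle conditions, 16 of 45 were lower in FVB/N by 1 log2 unit (35.6%, beside 18.8%) and 1 was higher (beside 7.5%). Iigp1, a GTPase of the same defence as the guanylate binding proteins, had 1209, 851 and 114 counts in C57BL/6J and 51.1 and 39.0 in FVB/N. Iigp1 was thus high in the reused libraries and low in all new ones. Mndal had 91.3, 121 and 62.6 counts in C57BL/6J and 4.41 and 3.93 in FVB/N, and Ifi205 was higher in FVB/N (72.6 counts in FVB.CTL.F1) than in C57BL/6J (28.8 in C57.CTL.F1).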

How the data were processed

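RNA of 25 cauda sperm libraries in 5 conditions was measured by all-RNA-seq. The authors clipped the adapter, mapped reads of at least 18 bases to mm10 with TopHat and quantified genes with Cuffdiff. The Cuffdiff options and the annotation release are not given in the sources used here. The submitters' processing notes also name CASAVA 1.8.2 and Cufflinks. The deposited values are a signal, 1 estimated fragment count per gene and condition, with Cuffdiff's scaling of the libraries and no division by gene length. The deposited variance of each count, from Cuffdiff's model, was read as a model SD, and that of a difference was the root of the summed variances. Estimates that Cuffdiff gave as failed, for 71 genes in at least 1 condition, were treated as missing.

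Samples were grouped by their titles. Log2 ratios were computed with 1 added to each count, a gene entered a comparison if either condition reached 10 counts, and it was counted as higher or lower at 1 log2 unit. Strain separation was counted over genes that reached 10 counts in any condition, and required both FVB/N counts beyond all 3 C57BL/6J counts. With 1 value per condition, no test was possible and the share of all genes was given beside the main counts. Shares under the other scalings, pseudocounts and minimum counts, and within F1, were not computed. Levels per kb used merged exons of GENCODE M21 on GRCm38, the assembly of mm10. Promoters were searched in a RefSeq table on GRCm38.p6.

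The 34 genes, the further pathway lists and the marker lists were chosen with earlier results of these data known. The text names all 34, with all 5 counts for those past 1 log2 unit or separated by strain, and from the other lists the ligands and receptors and at most the 2 largest differences in each direction past 1 log2 unit per comparison, among genes with at least 50 counts. Irf5, Irf8, Ikbke, Ptprc, Cd74, Gbp10, Gbp11 and Cxcl9 were named after their values were seen. Python 3.11.15 with numpy 2.4.6, pandas 2.3.3 and matplotlib 3.10.9 was used. The counting steps were tested on simulated data with planted changes well above 1 log2 unit, which does not cover calls near that threshold.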

Additional observations from a re-analysis of the deposited data

How the results depend on the processing

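The alternatives were pseudocounts of 0.1 and 10, other minimum counts, scaling to equal totals, by median-of-ratios or by the upper quartile, a required difference beyond the model SD, and a threshold of 2 log2 units. Of 144 such values of the main counts and medians, 125 stayed within the set limits (1.5 times for a count, 0.25 log2 units for a median), 19 moved and 0 reversed. The 680 values of single genes all stayed within 1 model SD, but that limit was wide. The model SD was at least 0.231 times each count, and no scaling moved the median of all genes by more than 0.29. The scalings could therefore hardly pass the limit, and this outcome says little about how firm single genes are.

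At 2 log2 units the counts became 0 higher after DEHP in C57BL/6J F1, 0 higher and 0 lower in C57.D300.F2, and 1 lower in FVB.CTL.F1, each against C57BL/6J vehicle. A gap of 1 log2 unit left 0 genes with FVB/N above C57BL/6J and 4 below. With a pseudocount of 10, 0 were higher and 1 lower in C57.D300.F2, and 7 lower in FVB.CTL.F1. With equal totals, C57.D300.F2 had 4 higher, 1 lower, 27 above 0 and a median of 0.28, and FVB.CTL.F1 had 7 lower. With the upper quartile these were 3 higher, 1 lower and 7 lower, and with median-of-ratios 1 was lower in C57.D300.F2. With a minimum of 50 counts, 11 genes were above 0 after DEHP in FVB/N, since fewer genes were counted. The cause of the other changes was not tested. The counts above 0 and the strain counts within the new libraries or within F1 were chosen after seeing the data. Within F1, 19 genes lay below and 5 above. The share of all genes was not computed within F1, so nothing is concluded from these 2 counts. Over all 5 conditions the shares were 32.4% below and 29.4% above.

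No paired analysis was possible because the table gives 1 value per condition, and for the same reason no replicate was left out. Depth limits Oas1a, Gbp6 and the interferons most.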
